A study of Homo sapiens with 4 samples.

Results

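The genes described here are 10 imprinted genes, that is, genes read mainly from the copy inherited from 1 parent: DLK1, RTL1, MEG3, MEG8 and MEG9 of a single domain on chromosome 14, H19, IGF2 and CDKN1C on chromosome 11, and PEG10 and MEST on chromosome 7. They were found by Ensembl identifier among the 60234 gene rows of the count table, and all 10 were present. DLK1 and RTL1 were chosen by their difference between retinoic acid (RA) and control in these same libraries, so their RA values are a description and support nothing. Whether the genes were imprinted in these cells was not measured, because read counts per gene do not tell the parental copies apart.

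The cells came from a human embryonic stem cell (hESC) line in which green fluorescent protein (GFP) is expressed from 1 copy of NKX2-5, a gene for a transcription factor of the heart, so that GFP marks NKX2-5-expressing cells. Embryoid bodies, which are aggregates of differentiating cells, were steered to cardiac cells with 1 µM RA from day 4 to day 7 (RA) or with the solvent DMSO (CTR), and GFP-positive and GFP-negative cells were separated by sorting at day 31. Each of the 4 fractions gave 1 RNA library: RA GFP-positive, CTR GFP-positive, RA GFP-negative and CTR GFP-negative. All 4 carry the same reporter allele, which leaves 1 copy of NKX2-5 intact, and the GFP-negative fraction is whatever did not express the reporter, a mixture by construction. The comparisons asked how RA given early in differentiation and the NKX2-5 state of the cell at the end were reflected in the RNA.

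In imprinted domains a region of DNA methylation set in the egg or the sperm decides which copy is read. On chromosome 14, DLK1, RTL1 and DIO3 are read from the paternal copy, and MEG3, MEG8, MEG9 and long clusters of microRNAs (miRNAs) and small nucleolar RNAs (snoRNAs) from the maternal one. On chromosome 11, paternal IGF2 and maternal H19 compete for shared enhancers in many fetal tissues, and CDKN1C is maternal. PEG10 and MEST are paternal. Many of these genes are abundant in fetal tissue and placenta and act on growth: IGF2 is a growth factor, CDKN1C an inhibitor of cyclin-dependent kinases, and DLK1 a membrane protein related to the Notch ligands that is known from progenitor cells of fat, muscle and other tissues.

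Depth differed between the libraries. The 3 larger libraries held 26222787 to 28643091 reads in genes, and the CTR GFP-negative library held 4371101. Levels are CPM, that is, counts divided by library totals scaled by trimmed mean of M values (TMM) factors, which lay between 0.951 and 1.07. A count of 3 reads, used as the floor, was 0.105 to 0.117 CPM in the larger libraries and 0.639 CPM in the CTR GFP-negative library. NKX2-5 itself, the gene behind the sort, stood at 463 and 593 CPM in the RA and CTR GFP-positive libraries and at 9.74 and 14.5 CPM in the GFP-negative ones. With 1 library per group there were no replicates, so no difference between groups was tested and no p-value is given. Differences are of log2(CPM + 1), called apart when they reached 2-fold in genes that reached 10 CPM in 1 of the libraries compared. Intervals are 95% intervals, exact Poisson for a level and exact Clopper-Pearson for a ratio of reads, and cover counting error only. In such mixed samples more cells of a type and more RNA per cell cannot be told apart.

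Sequences of the chromosome 14 domain are shown first, because the results turn on the contrast between its paternal and maternal transcripts. The 3 promoters below are from RefSeq on build GRCh38.p14, from 250 bases before to 50 bases after the annotated start, in the direction of the gene, for RTL1 and DIO3, which were both higher with RA, and for MEG3, which had at most 50 reads in a library. Capitals mark every match, on either strand, to a TATA box (TATAAA), a cAMP response element (TGACGTCA) or a nuclear receptor half-site of the kind that RA receptors bind (the letters AGGTCA or the variants with AGTTCA, with GGTTCA and with GGGTCA).
RTL1 at chr14:100903673-100903972, minus strand: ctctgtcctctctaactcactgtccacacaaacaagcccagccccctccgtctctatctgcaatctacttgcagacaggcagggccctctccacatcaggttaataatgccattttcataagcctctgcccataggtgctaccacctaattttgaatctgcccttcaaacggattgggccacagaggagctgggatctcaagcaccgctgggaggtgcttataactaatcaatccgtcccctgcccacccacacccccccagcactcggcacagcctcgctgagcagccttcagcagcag
DIO3 at chr14:101561245-101561544, plus strand: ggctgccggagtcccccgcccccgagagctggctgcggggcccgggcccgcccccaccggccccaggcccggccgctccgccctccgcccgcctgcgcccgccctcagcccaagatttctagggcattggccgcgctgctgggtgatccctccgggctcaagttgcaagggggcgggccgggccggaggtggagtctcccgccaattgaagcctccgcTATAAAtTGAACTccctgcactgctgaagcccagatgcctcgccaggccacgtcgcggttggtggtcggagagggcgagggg
MEG3 at chr14:100825858-100826157, plus strand: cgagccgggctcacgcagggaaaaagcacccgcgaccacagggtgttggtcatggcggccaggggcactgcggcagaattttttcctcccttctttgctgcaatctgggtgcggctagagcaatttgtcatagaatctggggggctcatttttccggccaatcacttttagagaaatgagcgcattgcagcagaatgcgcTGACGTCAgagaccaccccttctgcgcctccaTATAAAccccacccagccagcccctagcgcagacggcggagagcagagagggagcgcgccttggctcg
The RTL1 window held none of these letters. The DIO3 window held TATAAA 32 bases before the start and AGTTCA, read on the opposite strand, 25 bases before it. The MEG3 window held TGACGTCA from 50 bases and TATAAA from 18 bases before the start. Among all 35116 promoter windows of the table, 38.6% held at least 1 of the 4 half-sites, 11.5% held TATAAA and 1.85% held TGACGTCA, so that only the last of these motifs was rare. CpG dinucleotides, the sites that imprint methylation acts on, numbered 6 in the RTL1 window, 19 in the MEG3 window and 28 in the DIO3 window, against a median of 14 over all windows. The table held promoters for 5 of the 10 genes.

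RTL1 lies head on against the maternal transcript. On the opposite strand within its exons are the hairpins of miRNAs whose sequences are therefore complementary to the RTL1 transcript, and H19 and MEST host an miRNA each. Their mature sequences are shown 5′ to 3′ from the same RefSeq build with the seed, bases 2 to 8, in capitals, since the seed sets which transcripts a miRNA pairs with.
miR-431-5p: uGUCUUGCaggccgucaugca
miR-433-3p: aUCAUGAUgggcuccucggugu
miR-127-3p: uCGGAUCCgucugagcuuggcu
miR-432-5p: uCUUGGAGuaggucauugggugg
miR-136-5p: aCUCCAUUuguuuugaugaugga
miR-675-5p, from H19: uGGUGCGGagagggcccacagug
miR-335-5p, from MEST: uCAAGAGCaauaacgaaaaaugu
The 7 seeds were all different, so that no pair of these miRNAs shares a seed. The counts below are of long-RNA libraries, in which mature miRNAs were not measured.

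DLK1, on hg19 (GRCh37) at chr14:101192042-101204561, was the member of the domain with the most reads in every library. Its level was 656 CPM (interval 646 to 666) in RA GFP-positive, 148 CPM (144 to 153) in CTR GFP-positive, 1854 CPM (1837 to 1870.47) in RA GFP-negative and 779 CPM (754 to 805) in CTR GFP-negative cells. The level was higher in the RA library of each fraction and higher in the GFP-negative library of each treatment. With RA it was 4.43 times as high in GFP-positive cells (4.28 to 4.58) and 2.38 times as high in GFP-negative cells (2.30 to 2.46). The CTR GFP-negative library still held more DLK1 than the RA GFP-positive one. GFP-negative cells had 5.26 times the DLK1 of GFP-positive cells in CTR and 2.83 times in RA. Per kilobase of exon, DLK1 ranked 210th of 23046 genes in RA GFP-positive cells and 1314th of 23278 in CTR GFP-positive cells, 69th of 23793 in RA GFP-negative cells and 162nd of 17649 in CTR GFP-negative cells. With the length of the canonical transcript in place of all exons these ranks were 385th, 2216th, 140th and 288th.

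RTL1, at chr14:101346090-101370059 on the minus strand, encodes a protein derived from a retrotransposon that is needed in the placenta and in fetal muscle. It was counted 713 times in RA GFP-positive, 23 times in CTR GFP-positive, 1072 times in RA GFP-negative and 24 times in CTR GFP-negative cells, or 26.7, 0.803, 41.8 and 5.11 CPM. Only the RA libraries thus held the gene above 10 CPM. The ratio of RA to CTR was 33.2 (22.0 to 52.7) in GFP-positive cells and 8.17 (5.46 to 12.8) in GFP-negative cells, and both rest on 23 or 24 control reads. In CTR, GFP-negative cells held 6.37 times the level of GFP-positive cells (3.44 to 11.8), and in RA 1.57 times (1.42 to 1.73). DLK1 reads per RTL1 read were 184 and 152 in the CTR GFP-positive and GFP-negative libraries and 24.6 and 44.4 in the RA ones. Of the exon bases of RTL1, 35.7% are shared with genes of the other strand, and counting took no account of strand, so reads from an opposite transcript in the remaining exon bases would be in these counts.

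The third paternal gene, DIO3, encodes the enzyme that inactivates thyroid hormone and is not among the 10. It lies at the far end of the domain, at chr14:102026476-102029789, and had 139, 31, 1204 and 43 reads in the RA GFP-positive, CTR GFP-positive, RA GFP-negative and CTR GFP-negative libraries. That is 5.20, 1.08, 46.9 and 9.16 CPM, and 4.80 times as much with RA in GFP-positive cells (3.24 to 7.34) and 5.12 times in GFP-negative cells (3.78 to 7.12). The CPM of each of the 3 paternal genes was larger in the RA library of both fractions and in the GFP-negative library of both treatments, but DIO3 was under 10 CPM in both GFP-positive libraries, and between fractions RTL1 was under 10 CPM in CTR and 0.63 apart on the log2 scale in RA, which is under 2-fold. DIO3 was not used to choose the genes, but it was in lists drawn up with earlier results known. BEGAIN, a gene of synapses within 250 kb of DLK1 on its other side, stood at 12.9, 3.42, 11.5 and 13.0 CPM in the same order, higher with RA in the GFP-positive fraction by 1.65 on the log2 scale and 0.17 lower in the other.

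The maternal transcripts were hardly present. MEG3, a long noncoding RNA at chr14:101245747-101327368, had 8 reads in RA GFP-positive, 0 in CTR GFP-positive, 50 in RA GFP-negative and 1 in CTR GFP-negative cells. Its highest level, in RA GFP-negative cells, was 1.95 CPM (1.45 to 2.57), and the count of 0 lies under the floor of 0.105 CPM, with an exact upper limit of 0.129 CPM. In GFP-positive cells MEG3 was at least 2.86-fold higher with RA when the control is set at the floor of 3 reads, and the exact lower limit, which also counts the error of the 8 reads, was 1.83-fold. In GFP-negative cells the ratio was 9.15, and its interval of 1.57 to 369 reflects the single control read.

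MEG8 (chr14:101361107-101505196), another long noncoding RNA and the host of the snoRNAs, had 5 reads, all in the RA GFP-negative library. MEG9 (chr14:101509245-101539274), which lies among the distal miRNAs, had 47, 23, 31 and 17 reads in the RA GFP-positive, CTR GFP-positive, RA GFP-negative and CTR GFP-negative libraries, and no library exceeded 3.62 CPM. The 3 MEG genes stayed under 10 CPM in every library and none could be called apart. For each MEG3 read there were 2193 DLK1 reads in RA GFP-positive and 951 in RA GFP-negative cells, and in CTR GFP-positive cells, with MEG3 set at the floor of 3 reads, 1414, with an exact lower limit of 1149.7 from the count of 0. In CTR GFP-negative cells the ratio of 3658 rests on 1 read, with an interval of 656 to 144522. These are ratios of reads and depend on the lengths taken for the genes: in RA GFP-positive cells the ratio was 9708 per kilobase of all exons and 298 per kilobase of the canonical transcripts, and in RA GFP-negative cells 4211 and 129.

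Small RNA genes of the domain were as sparse. Of 53 miRNA rows, 3 had any read, and the summed reads of all 53 were 29, 0, 24 and 4 in the RA GFP-positive, CTR GFP-positive, RA GFP-negative and CTR GFP-negative libraries. Of 52 snoRNA rows, 2 had any read. The row with the most miRNA reads, AL117190.1, sits at chr14:101369934-101370053, on the opposite strand at the upstream end of RTL1, and had 29 reads in RA GFP-positive and 21 in RA GFP-negative cells and 0 in both CTR libraries. Its reads were in the RA libraries, which held RTL1 above 10 CPM, and without strand they cannot be told from reads of RTL1 itself.

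**Figure D1:**
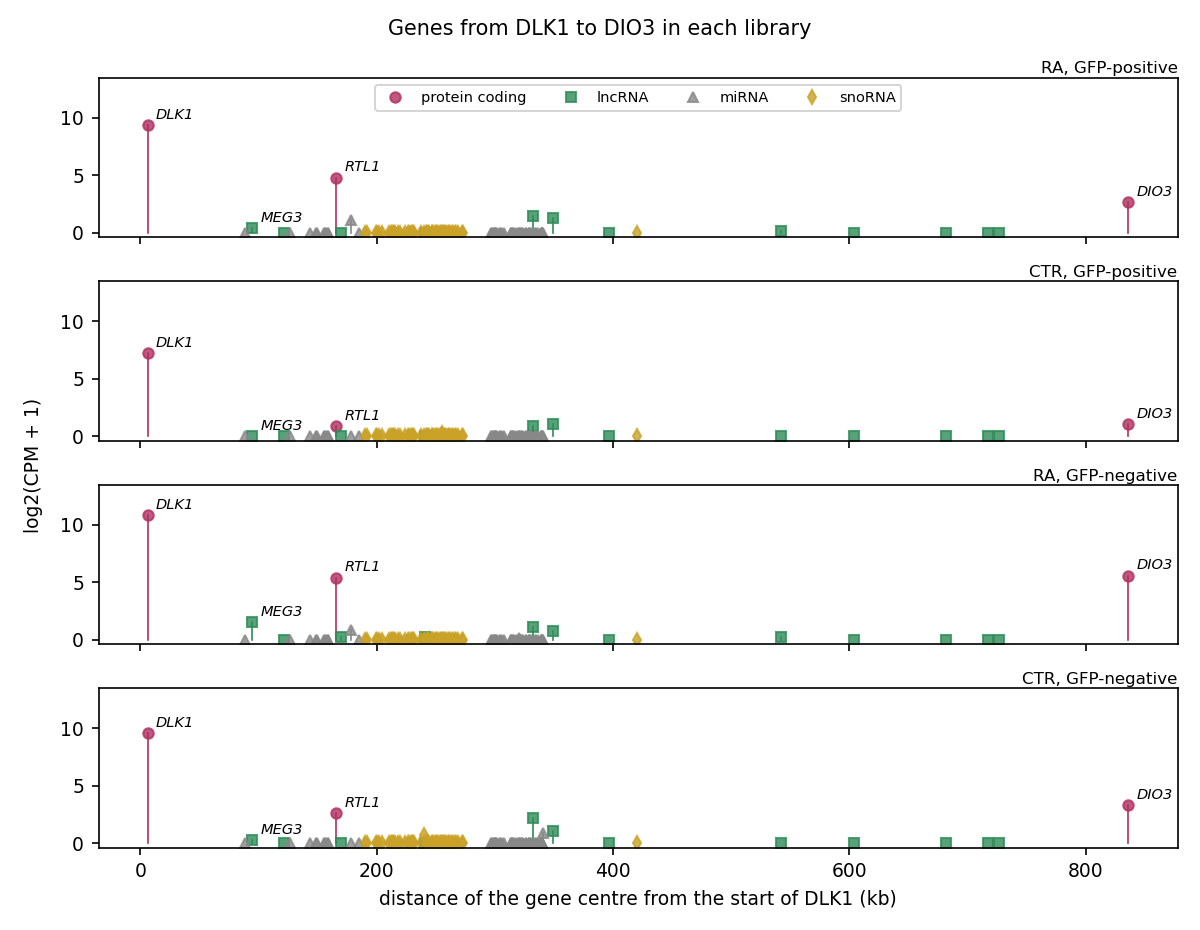
Level of each gene row from DLK1 to DIO3 in the 4 libraries, as log2(CPM + 1) on the vertical axis against the distance of the gene's centre from the start of DLK1 in kb; symbols give the kind of gene. The paternal protein-coding genes DLK1, RTL1 and DIO3 stand out, while MEG3 reaches at most 1.95 CPM and most miRNA and snoRNA rows lie at 0.

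IGF2, at chr11:2150342-2179621 on the minus strand, was the second most counted member after H19 in 3 libraries and the first in RA GFP-negative cells. Its level was 5730.01 CPM in RA GFP-positive, 4492 in CTR GFP-positive, 3576 in RA GFP-negative and 3602 in CTR GFP-negative cells. The highest library thus held 1.60 times the lowest. The ratio of RA to CTR was 1.28 in GFP-positive cells (1.27 to 1.29) and 0.993 in GFP-negative cells (0.977 to 1.01), where the interval holds 1. Of its exon bases 44.4% are shared with other gene models, among them a read-through with INS and the antisense IGF2-AS, and reads on shared bases can be left out of its count.

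H19, a noncoding RNA at chr11:2016396-2025782, had its libraries in the same order as IGF2, with 6856, 4977, 3412 and 3678 CPM in the RA GFP-positive, CTR GFP-positive, RA GFP-negative and CTR GFP-negative libraries. In the annotation used it shares no exon base with another gene, although it hosts miR-675. With RA it was 1.38 times as high in GFP-positive cells (1.37 to 1.39) and 0.928 times in GFP-negative cells (0.912 to 0.943). The log2 difference between GFP-positive and GFP-negative cells was 0.44 in CTR and 1.01 in RA, the second of which only just reaches 2-fold and fell short of it, at 0.97, with library size as the scale. Reads of IGF2 per read of H19 were 0.836, 0.903, 1.05 and 0.979 in the order given above, a ratio of reads that is not corrected for the lengths of the genes. Together H19 and IGF2 made up 71.1% to 91.3% of the reads of the 10 genes, and the 10 genes 0.962% to 1.31% of all reads of a library.

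CDKN1C, at chr11:2904443-2907005, encodes p57, which restrains the cell cycle. Its level was 164 CPM in RA GFP-positive, 132 in CTR GFP-positive, 523 in RA GFP-negative and 600.3 in CTR GFP-negative cells. Both GFP-negative libraries lay above both GFP-positive ones, 4.53-fold in CTR (4.31 to 4.76) and 3.20-fold in RA (3.09 to 3.31). Between RA and CTR it differed by 0.30 on the log2 scale in GFP-positive and by -0.20 in GFP-negative cells. KCNQ1OT1, a paternal noncoding RNA of the same domain, stood at 23.6, 24.0, 29.6 and 62.6 CPM in the order above. The neighbouring KCNQ1, a potassium channel of cardiomyocytes, stood at 94.6, 82.7, 9.12 and 7.24 CPM. It was listed as maternal, but its parental copies were not told apart in these cells. KCNQ1 thus followed the cardiomyocyte fraction, the opposite of CDKN1C.

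PEG10, at chr7:94285637-94299007, encodes a protein derived from a retrotransposon and is best known from the placenta. Of the 7 genes above 10 CPM it was the one called lower with RA, in the GFP-positive fraction. Its level was 276 CPM (interval 270.06 to 283) in RA GFP-positive, 1258 CPM (1245 to 1271) in CTR GFP-positive, 98.0 CPM (94.2 to 102) in RA GFP-negative and 126 CPM (116 to 137) in CTR GFP-negative cells. The CTR GFP-positive library stood far above the other 3. CTR GFP-positive cells held 4.55 times the level of RA GFP-positive cells (4.44 to 4.67) and 9.98 times that of CTR GFP-negative cells (9.20 to 10.8). In GFP-negative cells CTR held 1.29 times the RA level (1.17 to 1.41).

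SGCE, a sarcoglycan gene that lies head to head with PEG10 and is also paternal, had 29.8, 72.3, 40.3 and 41.3 CPM in the RA GFP-positive, CTR GFP-positive, RA GFP-negative and CTR GFP-negative libraries. It was highest in the same library as PEG10, and its difference between RA and CTR was -1.25 in the GFP-positive and -0.04 in the GFP-negative fraction. The next neighbours on either side, CASD1 and PPP1R9A, were -0.53 and -0.92 in GFP-positive cells and did not reach 2-fold. COL1A2, a collagen gene within 250 kb, went the other way, by 2.14. SGCE and PEG10 share 3.27% of the exon bases of PEG10 on opposite strands.

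MEST, at chr7:130126012-130146306, encodes an enzyme of the hydrolase family and is expressed in mesoderm. Its levels of 73.4 CPM in RA GFP-positive, 66.2 in CTR GFP-positive, 323 in RA GFP-negative and 289 in CTR GFP-negative cells differed by fraction and hardly by treatment. The ratio of GFP-negative to GFP-positive cells was 4.37 in CTR (4.07 to 4.69) and 4.40 in RA (4.19 to 4.63), and that of RA to CTR was 1.11 (1.04 to 1.18) and 1.12 (1.05 to 1.18). Genes of the opposite strand share 27.6% of its exon bases.

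**Figure D2:**
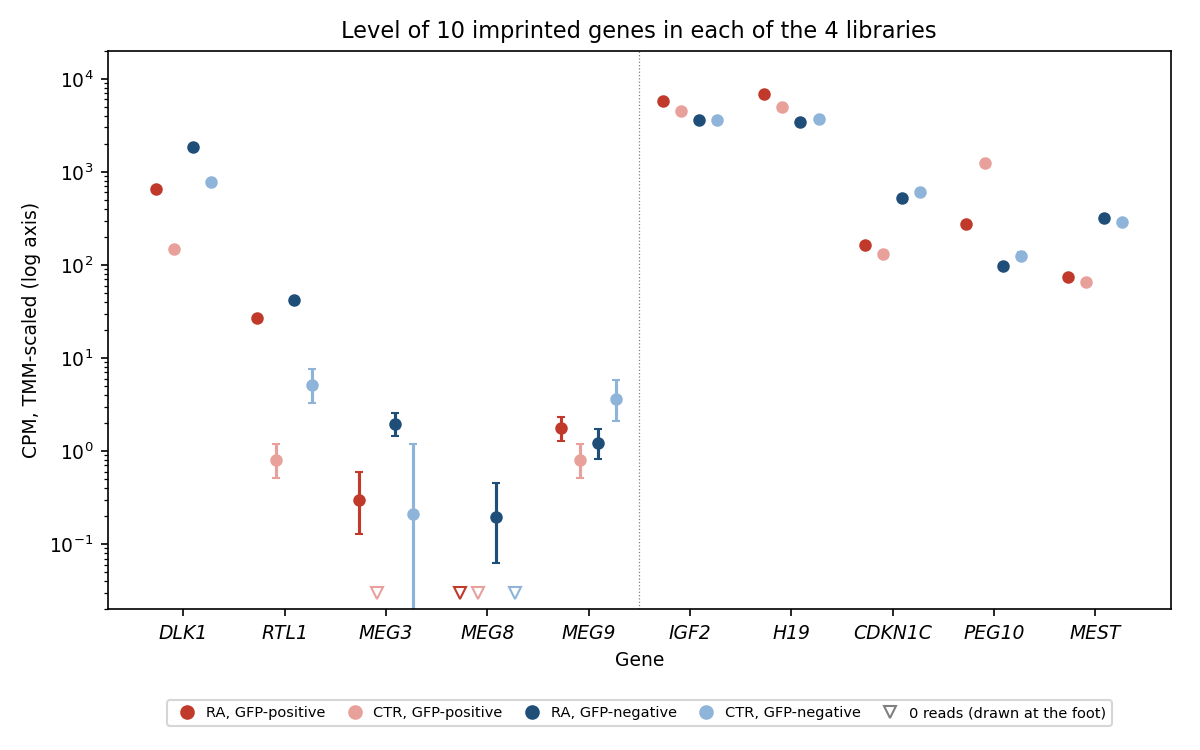
Level of the 10 genes in the 4 libraries in CPM on a log axis; each point is 1 library, bars are exact Poisson 95% intervals, and open triangles at the foot are counts of 0. DLK1 and RTL1 are higher in the RA library of each fraction, PEG10 is highest in CTR GFP-positive cells at 1258 CPM, and MEST and CDKN1C split by fraction.

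Levels of different genes can be set side by side only per length. Per kilobase of exon, H19 was highest and IGF2 next in all 4 libraries, from 986 CPM of H19 in RA GFP-negative to 1980.35 in RA GFP-positive cells. Below them the order changed: DLK1 came next in both RA libraries, at 125 CPM per kilobase with GFP and 353 without, PEG10 in CTR GFP-positive cells, at 188, and CDKN1C in CTR GFP-negative cells, at 242. RTL1 was 7th in all 4, between 0.149 and 7.74 CPM per kilobase, and the MEG genes lay below it. With canonical transcript lengths, which are much shorter for the MEG genes, MEG9 lay above RTL1 in both CTR libraries, at 0.560 against 0.149 with GFP and 2.53 against 0.947 without, and MEG3 above RTL1 in none.

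Counted over the genes, 7 of the 10 reached 10 CPM in the GFP-positive comparison of RA with CTR. Of these, DLK1 and RTL1 were called higher and PEG10 lower, against 5.81% of all 11186 genes at that level called in either direction, 4.14% higher and 1.67% lower. In GFP-negative cells DLK1 and RTL1 were called higher of 7 and none lower, against 8.13% of all 11606 genes called, 4.95% higher and 3.18% lower. DLK1 and RTL1 had been chosen for this, so nothing follows from their count. In GFP-positive cells the 4 remaining genes above 10 CPM, H19, IGF2, MEST and CDKN1C, were higher with RA by 0.15 to 0.46 on the log2 scale, under 2-fold.

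Between fractions more genes were apart, as among all genes. In CTR, PEG10 was called higher in GFP-positive cells and DLK1, MEST and CDKN1C lower, 4 of 6, against 25.2% of all genes, 11.9% higher and 13.3% lower. In RA, PEG10 and H19 were called higher and DLK1, MEST and CDKN1C lower, 5 of 7, against 22.4%, 9.97% higher and 12.4% lower. The values of H19, IGF2, CDKN1C, PEG10 and MEST in these comparisons did not enter the choice of DLK1 and RTL1, but the comparisons share libraries with those of RA and CTR.

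**Figure D3:**
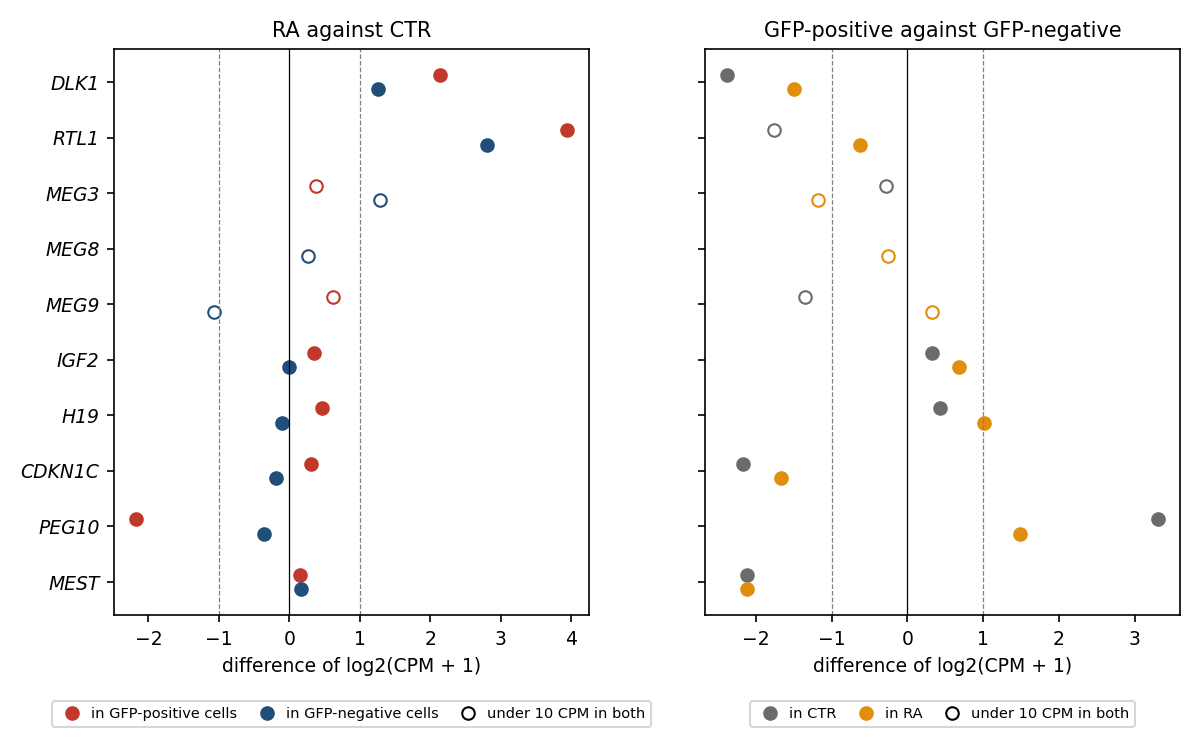
Difference of log2(CPM + 1) for each of the 10 genes, RA minus CTR on the left and GFP-positive minus GFP-negative on the right; dashed lines mark 2-fold and open points are genes under 10 CPM in both libraries. DLK1 and RTL1 lie to the right in both fractions of the left panel, PEG10 at -2.18 in GFP-positive cells, and MEST near 0 on the left and near -2.1 on the right in both treatments.

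Other genes known to be imprinted were compared next, 41 of them matched in the table. Their median difference between RA and CTR was 0.20 in GFP-positive cells over the 34 that reached 4 reads, and 0.07 in the GFP-negative fraction over 37, against 0.00 and 0.16 over all genes with as many reads. Among those above 10 CPM, SGCE was called lower and TFPI2 higher of 20 in the GFP-positive fraction, and in the other DIO3 and TFPI2 were called higher and KCNQ1OT1 lower of 21, shares that rest on 2 and 3 genes and stand against 5.81% and 8.13% of all genes. TFPI2, a maternal gene for a protease inhibitor of the placenta, stood at 64.7, 29.0, 39.7 and 14.7 CPM in the RA GFP-positive, CTR GFP-positive, RA GFP-negative and CTR GFP-negative libraries, 2.23 and 2.70 times as high with RA. PEG3, abundant in many fetal tissues, had at most 0.0748 CPM in any library.

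Between fractions the other imprinted genes were apart in both directions. In CTR, 4 of 20 genes at 10 CPM were called higher in GFP-positive cells and 4 lower, against 11.9% and 13.3% of all genes, and in RA 8 of 24 were called higher and 5 lower, against 9.97% and 12.4%. The largest differences upward were those of KCNQ1, given above, of SNHG14, the long host of the snoRNAs of a paternal domain on chromosome 15, of PPP1R9A, the neighbour of PEG10, in CTR and of FAM50B in RA. SNHG14 had 273 and 354 CPM in the RA and CTR GFP-positive libraries and 124 and 142 in the GFP-negative ones. PPP1R9A differed by 1.32 in CTR, and FAM50B by 1.38 in RA, at 13.1 against 4.44 CPM. The largest differences downward were in CTR those of CPA4, a carboxypeptidase gene, by -2.86 on 18 and 51 reads, KCNQ1OT1, by -1.35, and GRB10, an adaptor of the insulin and IGF receptors, by -1.32. In RA they were those of DIO3, by -2.95, PHLDA2, a maternal gene that restrains growth of the placenta, by -2.90, and CPA4, by -1.96. The median over all these other imprinted genes was 0.17 in CTR and 0.08 in RA, against 0.19 and -0.01 over all genes. The RA value moved to 0.31 when reads were thinned and to 0.21 over genes at 5 CPM, and both were 0 with every listed gene kept.

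**Figure D4:**
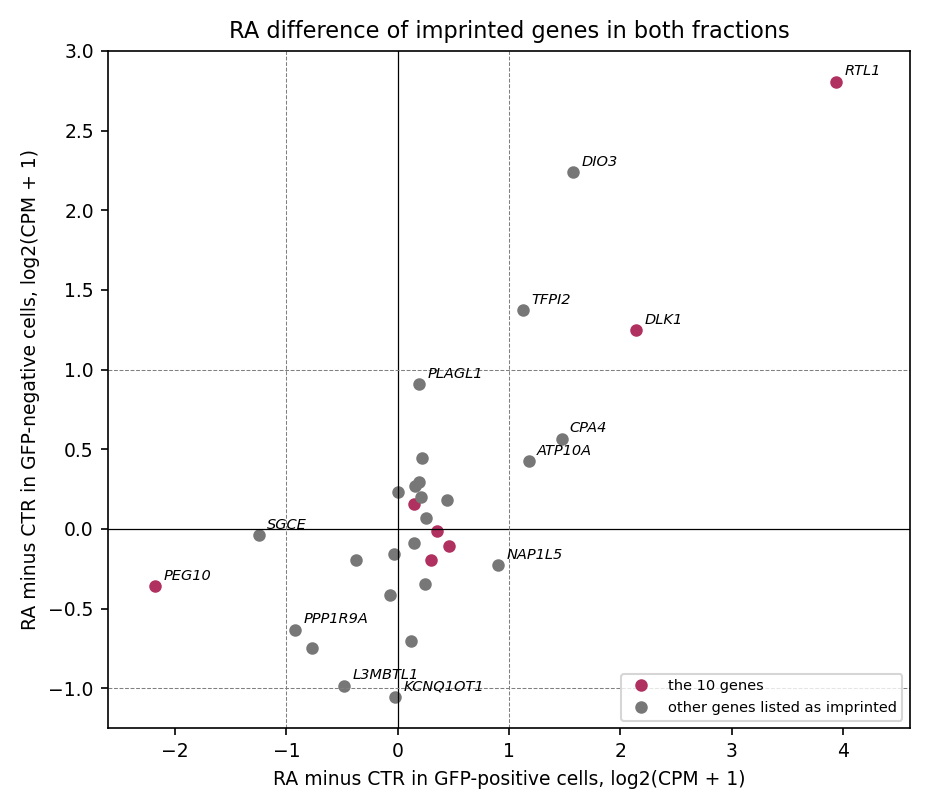
RA minus CTR difference of log2(CPM + 1) in GFP-positive cells (horizontal) against GFP-negative cells (vertical) for imprinted genes with at least 10 CPM in any library; the 10 genes are in red, other imprinted genes in grey, and genes at 0.85 or more in either fraction are named. RTL1, DIO3 and DLK1 of chromosome 14 lie at the upper right with TFPI2, PEG10 and SGCE at the left, and most others near 0.

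The genes that IGF2 acts through were measured as a list of 21. Of 15 at 10 CPM or more in GFP-positive cells, 4 were called higher with RA and none lower, against 4.14% and 1.67% of all genes. They were the binding proteins IGFBP3, at 126 CPM with RA and 40.6 in CTR, and IGFBP5, at 436 and 203, the protease PAPPA that cuts binding proteins, at 28.3 and 5.72, and its inhibitor STC2, at 152 and 54.3. In GFP-negative cells IGFBP3 alone was called, of 16 and against 8.13% of all genes, at 1927 against 960.03 CPM; the call, at 1.00 on the log2 scale, was lost in 4 of 5 other scalings, down to 0.87. The receptors IGF1R and IGF2R differed between RA and CTR by at most 0.08 on the log2 scale in either fraction. The median of the list was 0.31 and 0.09 in the GFP-positive and GFP-negative fractions.

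Of 19 genes of the Notch pathway, to whose ligands DLK1 is related, 11 reached 10 CPM in GFP-positive cells and 4 were called higher with RA, against 4.14% of all genes. The ligand JAG1 had 535 CPM with RA and 91.1 in CTR, the receptor NOTCH3 211 and 86.7, and the target genes HES1 and HEYL 87.5 and 33.9 and 13.8 and 1.85. In GFP-negative cells JAG1 and HEYL were called higher and HES5 lower, of 15, against 8.13% of all genes in either direction. The median was 0.26 and -0.06 in the 2 fractions.

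Cell cycle genes and inhibitors related to CDKN1C were a list of 15. MKI67, TOP2A and CDKN2B were called higher with RA of 9 in GFP-positive cells, with MKI67, a marker of dividing cells, at 11.8 and 3.59 CPM, and CCNA2 was called higher of 12 in GFP-negative cells, against 4.14% and 4.95% of all genes. The CDKN2B call, at 1.00 on the log2 scale, was lost in all 5 other scalings. CDKN1A and CDKN1B, the closest relatives of CDKN1C, differed by -0.28 each in GFP-positive cells. Of 15 genes that set or keep imprints, such as the DNA methyltransferase DNMT1 and the cofactor TRIM28, 11 reached 10 CPM in each fraction. None of the 11 was called apart between RA and CTR, against 5.81% and 8.13% of all genes. With so few genes a count of 0 says little. ZFP57, which protects imprints in early embryos and stem cells, stayed under 10 CPM in all libraries.

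The summed markers of some other cell types had the library order of DLK1 and DIO3. RTL1 had another order, with 26.7 CPM in RA GFP-positive and 5.11 CPM in CTR GFP-negative cells. All 8 markers of stroma, such as COL1A1, DCN and POSTN, were higher with RA in both fractions. Of those at 10 CPM, 7 of 7 were called in the GFP-positive and 5 of 8 in the GFP-negative one. Among all genes 4.14% and 4.95% were called higher. Their summed level was 15173 CPM in RA GFP-positive, 3967 in CTR GFP-positive, 61658 in RA GFP-negative and 32119 in CTR GFP-negative cells, the same order of the 4 libraries as DLK1. Not every marker had this order: in each treatment 7 were lower in GFP-positive cells and 1 was higher. In RA the higher marker differed by 2-fold or more, the opposite of DLK1. The 8 markers of fetal liver and endoderm summed to 52.3, 12.2, 949 and 86.5 CPM in that order, with AFP alone at 465 CPM in RA GFP-negative cells, the library with the most DLK1 and DIO3, and 3 of the 8 at 0 reads in CTR GFP-positive cells. Of the 8, 3 reached 10 CPM in the GFP-positive fraction, and AFP and SERPINA1 were called higher with RA, against 4.14% of all genes. In the GFP-negative fraction 6 did, and 5 were called higher and TTR lower, against 4.95% and 3.18% of all genes. There TTR had 11.7 CPM with RA and 73.0 in CTR. The 6 trophoblast markers, of interest because RTL1 and PEG10 are genes of the placenta, summed to 19.3, 6.32, 77.0 and 29.8 CPM, and the 5 pluripotency markers to 3.44, 0.768, 50.2 and 14.1 CPM, both in the DLK1 order. These sums are low: no gene of either list reached 10 CPM in a GFP-positive library. In CTR GFP-negative cells 2 of the trophoblast and 3 of the pluripotency markers had 0 reads.

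Other lists were ordered differently. The 8 cardiomyocyte markers summed to 15408 and 18051 CPM in the RA and CTR GFP-positive libraries and to 396 and 835 in the GFP-negative ones. The 6 endothelial markers summed to 16.8 and 17.1 CPM in the GFP-positive and 278 and 287 in the GFP-negative libraries, RA first, the 5 epicardial markers to 66.4 and 57.3 and to 342 and 574, the 8 neural and eye markers to 493 and 373 and to 320 and 897, and the 6 skeletal muscle markers to 18.1 and 18.4 and to 8.50 and 17.7. The part that any of these cell types had in the levels of the imprinted genes was not tested. RA and CTR cells also came from separate cultures, which cannot be told apart from the treatment.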

How the data were processed

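RNA was sequenced as pairs of 75-base reads from 4 sorted fractions. Trimming by the authors was with SICKLE 1.33 and alignment with GSNAP (a custom build of hg19, unique alignments kept), followed by SAMtools 0.1.18. The deposited values are raw counts, which the authors made per Ensembl gene with HTSeq 0.6.1p1 in intersection-nonempty mode and without regard to strand. The Ensembl release is not given in the sources used here. For their own analysis the authors scaled counts by TMM in edgeR.

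Here TMM factors came from edgeR 4.0.16 in R 4.3.3, and levels are CPM with a pseudocount of 1. Names were matched by Ensembl identifier for 55538 of 60234 rows, and gene coordinates and exons are from GENCODE lifted to GRCh37, newer than the models that were counted; promoters and miRNAs are RefSeq on GRCh38.p14 and were not placed on hg19. The 10 genes and all lists were chosen with earlier results of these data known. HYMAI, IPW, MCTS2P, KLF14 and UHRF1 were listed and are not analysed here. Genes named in the text are the 10, listed genes at 10 CPM with the 3 largest differences in each direction per list and comparison, annotated neighbours within 250 kb at 10 CPM, markers, and the 3 genes nearest in pattern to each member above 10 CPM; DIO3, PEG3, IGFBP5, NOTCH3, ZFP57, CDKN1A, CDKN1B, IGF1R, IGF2R, DNMT1, TRIM28 and the genes without a call among those that turned between fractions or treatments were named after their values were seen. The calling rule and intervals were tested on simulated data. Alternatives were other scalings (DESeq2 1.42.0 size factors among them), pseudocounts, filters and thinning of reads.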

Additional observations from a re-analysis of the deposited data

Results flagged for a closer look

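Opposite directions of the RA minus CTR difference in the 2 fractions, with both counting intervals of the ratio away from 1, drew attention to 5 genes, 3 of the 10 members and 2 listed genes that were also called apart in a fraction; this contrast between fractions was not tested, since each is 1 library. On the log2(CPM + 1) scale, GFP-positive first, MEG9 was 0.61 and -1.07, on 47 and 23 reads against 31 and 17, H19 was 0.46 and -0.11, CDKN1C was 0.30 and -0.20, IGFBP5 was 1.10 and -0.26, and PAPPA was 2.12 and -0.19. The directions of H19 and CDKN1C held under every scaling tried, and MEG9 turned to -0.13 in GFP-positive cells when reads were thinned to 4371101 per library. Of the 111 listed genes that are not markers, 9 more turned in the same way without being called in either fraction, GNAS-AS1, GRB10, IRS2, DLL1, DLL3, LFNG, MFNG, TET2 and TRIM28, and between GFP-positive and GFP-negative cells 5 turned from CTR to RA without a call, SGCE, IRS1, JAG1, MFNG and TRIM28.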

How the results depend on the processing

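Of 38 differences of the 10 genes that were not 0, 35 kept their direction under every alternative, 8 or 9 each. MEG9 turned to -0.13 (RA minus CTR, GFP-positive) and -0.14 (GFP-positive minus GFP-negative, RA), and MEST to -0.01 (RA minus CTR, GFP-positive), when libraries were thinned to 4371101 reads. RTL1 moved with the pseudocount, from 4.68 at 0.25 CPM to 2.45 at 5 CPM in GFP-positive cells. Without the 10 CPM filter, 4 genes in place of 2 were apart with RA in GFP-negative cells, MEG3 and MEG9 added; between fractions the count went from 4 to 5 at 5 CPM and 6 without the filter in CTR, and from 5 to 6 without it in RA. H19 in RA fractions ranged from 0.97 to 1.07, under 2-fold with library size alone and with DESeq2 size factors, which left 4 genes apart there in place of 5. Scaling without mitochondrial and the most abundant genes shifted all genes by -0.13 in GFP-negative cells, library size alone by -0.13 there and by -0.10 between CTR fractions, under which the median of the other imprinted genes in GFP-negative cells was -0.02 in both. That median between RA fractions, 0.08, was 0.31 with thinned reads, 0.21 at 5 CPM and 0 without a filter, which also took the CTR value of 0.17 to 0. TMM of the 3 deep libraries, chosen after seeing the data, left the counts as they were. No paired analysis was run, since each group has 1 library, and no library could be left out of its comparison. The CTR GFP-negative library limits values near its floor of 0.639 CPM.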

Other observations

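For each of the 10 genes at 10 CPM or more, the genes with the most similar pattern over the 4 libraries were found by Euclidean distance between centred log2(CPM + 1) values among 12258 genes; with 4 points, 1 per library, this is a description. Nearest to DLK1 were GMDS (distance 0.11), a fucose synthesis enzyme, NRK (0.19), a kinase, and DNM3OS (0.22), a host of miRNAs. GMDS had 17.7, 3.28, 48.6 and 19.6 CPM in the RA GFP-positive, CTR GFP-positive, RA GFP-negative and CTR GFP-negative libraries. Nearest to RTL1 were HOTAIRM1 (0.88), a noncoding RNA of the HOXA cluster, STMN2 (0.89), which is on the neural and eye marker list, and CCN3 (0.90). HOTAIRM1 had 7.18, 0, 10.6 and 1.92 CPM in the same order, and STMN2 had 42.5, 1.26, 72.7 and 16.8 CPM. DLK1 was 58th from RTL1, at a distance of 1.84, while RTL1 was 1220th in order of distance from DLK1.

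The H19 and IGF2 patterns lay 0.25 apart, and IGF2 was nearest to FCSK (0.06), H19 to NCOA1 (0.07), a coactivator of nuclear receptors. MEST was nearest to VSIR (0.08) and CDKN1C to CEBPB (0.09). PEG10 had no gene closer than PRDM16-DT (0.36), with 44.2, 174, 15.9 and 14.9 CPM in the order above. Near IGF2, C11orf21 and TSPAN32 shared the high CTR GFP-positive level of PEG10, at 63.2 and 63.4 CPM there against 15.5 and 20.9 in RA GFP-positive cells.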
